A study of Mus musculus with 12 samples.

Results

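The genes described here encode proteins of the cytosolic ribosome, the factors that start translation, nucleolar factors that build ribosomes, and subunits of RNA polymerase I. They were chosen by symbol from the authors' deposited table of the BaxBak comparison. The symbols begin with Rpl, Rps, Eif, Nop or Utp and go on with a number (Rplp0 and Rpsa too), or begin with Polr1. The ribosomal S6 kinases were left out, as were entries whose annotation text shows another gene's symbol too. That text breaks off at 87 characters, a width reached for 403 of the chosen probe sets, so symbols beyond it could not be seen. The choice gave 119 of 7896 named genes, on 451 of 30892 named probe sets, and 20 further genes with such symbols were left out because of a further symbol. Of the 119 genes, 35 were initiation factors with their kinases and exchange factors, 16 were large subunit proteins, 14 were small subunit proteins, 11 were nucleolar assembly factors and 4 were RNA polymerase I subunits. The remaining 39 were pseudogene loci of such genes, so the label of a translation module holds for the other 80. RefSeq held 118 of the symbols, all but Utp11l.

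A cytosolic ribosome has a small subunit, which reads the mRNA, and a large subunit, which joins the amino acids. RNA polymerase I copies the ribosomal RNA genes in the nucleolus, where small nucleolar ribonucleoproteins and processome factors modify, fold and trim the transcript while ribosomal proteins are added. Initiation factors then bring the start tRNA, the mRNA cap and the small subunit together, and cells that divide, such as the granule cell precursors of the postnatal cerebellum, keep this machinery at a high level.

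Whole cerebella of C57BL/6 mice at postnatal day 3, with meninges removed, were measured on exon and junction arrays, 12 samples in 4 groups of 3. All animals carried Math1-Cre, a recombinase driven by the promoter of Math1 (Atoh1) in the granule cell lineage, so RNA of the other cerebellar cells was measured along with the targeted cells. The Atr BaxBak mutants carried Atr-loxP/loxP together with Bax-loxP/loxP and Bak--/-, and the BaxBak controls carried only Bax-loxP/loxP and Bak--/-, which block the mitochondrial path of apoptosis. The Atr p53 mutants carried Atr-loxP/loxP with p53-loxP/loxP, and the p53 controls p53-loxP/loxP alone. The labels do not tie samples to litters, so the errors measure the spread between these samples. Atr is the kinase that answers stalled replication, and the design asks what its loss does in each background.

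Values are log2 signals as deposited, averaged per gene over the probe sets that carry its name, and signals of different genes depend on their probes and are not compared as levels. A probe set has a name only if the authors' own test of the BaxBak comparison passed, so the genes' values in that comparison were selected on these same samples and are given as a description, without a test. The p53 comparison took no part in the naming and was tested with limma over all named genes and over all 719071 probe sets of the array. Array medians lay between 6.46 and 6.49. The mean signal of 5222 negative control probe sets was 4.58, 4.40 and 4.32 in Atr BaxBak mutants, against 4.2, 3.97 and 4.16 in BaxBak controls. It was 4.23, 4.50 and 4.15 in Atr p53 mutants, against 4.12, 4.27 and 4.31 in p53 controls. All Atr BaxBak mutants share a label prefix found in no other group, so what it marks and the genotype cannot be told apart. No prefix occurs in both backgrounds, so the same holds for differences between backgrounds. In whole tissue, fewer cells of a type and less RNA per cell cannot be told apart either.

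In the BaxBak background nearly every named gene of the machinery had a lower signal in the Atr mutants, by modest amounts. Genes of the machinery without a named probe set, such as Rps6 and Eif4g1, are not covered. The gene mean was past the threshold (adjusted p under 0.05) and lower for 114 of the 119 genes, against 58.5% of all named genes, and higher for 3, against 39.7% of all named genes. The same arrays chose the names, so these counts only describe the named values and are no test. In the same 114 genes all 3 mutants lay below all 3 controls, as in 58.7% of all named genes. The median difference was -0.44 on the log2 scale, 1.36-fold lower, beside a median of -0.34, 1.26-fold lower, over all named genes. Leaving out the genes under the negative controls in either group, differences ran from -1.12 for Nop56 to 0.59 for Rps12. Centring each array on its named genes brought the median to -0.29, with 102 genes lower and 5 higher. The genes above their controls were Utp20 (0.53), Rps12 (0.59) and Eif3a (0.25), and the means of Eif2b1 (0.02) and Eif2ak2 (0.19) did not pass.

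Named markers of the cell types in the tissue moved in the same samples. They too have a name only where the authors' BaxBak test passed, so listed markers that did not pass it are absent. All 9 named markers of granule cell precursors, of 10 listed, were lower in Atr BaxBak mutants (median -0.64), with mean levels of 9.04 to 9.15 in the mutants, against 9.66 to 9.76 in the controls. All 5 named markers of astrocytes and Bergmann glia, of 8 listed, were higher (median 1.03). Their levels were 8.98 to 9.08 in the mutants, against 7.78 to 8.1 in the controls. All 6 named Purkinje cell markers, of 7 listed (median 0.83), and all 5 listed markers of GABAergic interneurons (median 0.74) were higher as well. Of 6 named oligodendrocyte lineage markers, of 7 listed, 5 were higher and 1 lower (median 0.71). Also higher were the 4 named microglial markers of 7 listed (median 0.50) and the 2 named endothelial and pericyte markers of 7 (median 0.94). The 1 named erythroid marker of 4 listed was higher too (0.47), but lay near the negative controls. It had 4.69 to 4.76 in the mutants and 4.17 to 4.29 in the controls, beside negative control means of 4.44 and 4.11. Of 3 named markers of postmitotic granule neurons, of 8 listed, 1 was higher and 2 lower (median -0.54). The same counts held for the 3 named markers of meninges and choroid plexus, of 6 listed (median -0.82). None of the 44 named markers lay under the mean negative control signal in all 4 groups. The part of these shifts in the lower ribosome and translation signals was not tested.

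**Figure D1:**
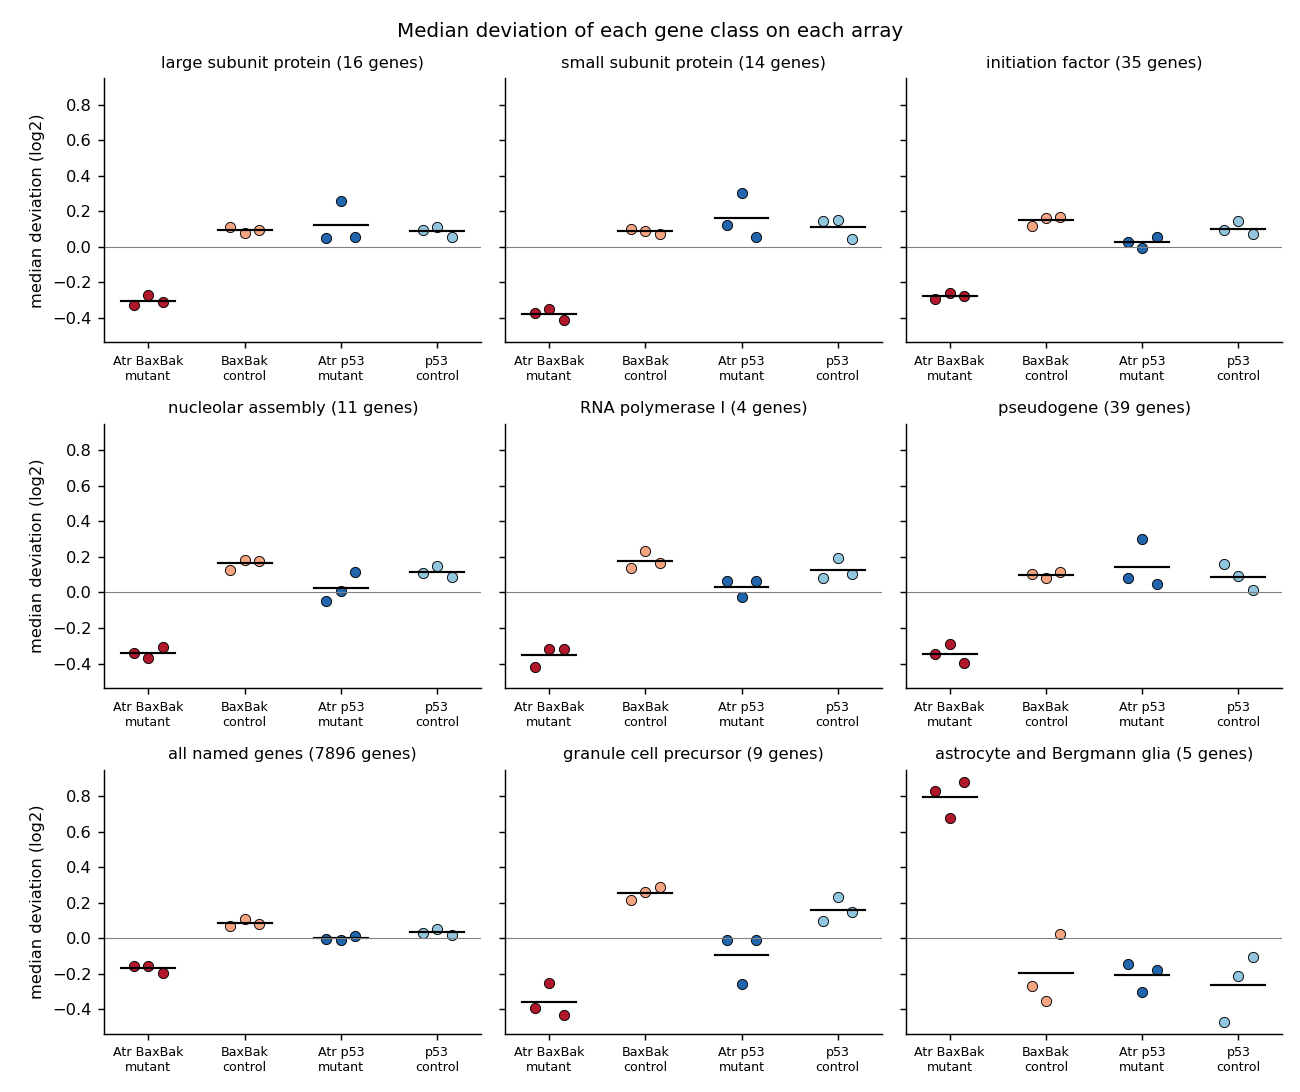
Each point is 1 array, and its height is the median over the genes of a class of the log2 signal minus that gene's mean over all 12 arrays, with lines at the group mean. All 6 classes lie between -0.42 and -0.26 on the 3 Atr BaxBak mutant arrays and at -0.048 or higher on the other arrays. Granule cell precursor markers are low on those 3 arrays and on Atr p53 mutant 2 (-0.26), and glial markers are high on those 3.

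The 16 large subunit proteins were all lower in Atr BaxBak mutants, with log2 differences from -0.88 to -0.21 and a median of -0.37. Rpl13a, a large subunit protein that in human macrophages also silences mRNAs, had signals of 8.80, 8.87 and 8.65 in Atr BaxBak mutants, against 9.57, 9.68 and 9.71 in BaxBak controls. The highest mutant was thus well under the lowest control, and the difference was -0.88 ± 0.14 (SE), 1.84-fold, on 1 probe set. Rpl38, whose loss in mice disturbs the translation of Hox mRNAs, had 10.29, 10.22 and 10.13 in the mutants, against 10.99, 10.80 and 10.95 in the controls, a difference of -0.70 ± 0.14. Rpl22, an RNA-binding protein that is dispensable for most ribosomes, differed by -0.57 ± 0.08 as a mean of 7 probe sets, with values of 9.60 to 9.65 in the mutants and of 10.15 to 10.20 in the controls.

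Rplp0, the base of the ribosomal stalk and a common normalisation gene, had 11.48, 11.55 and 11.52 in Atr BaxBak mutants, against 11.85, 11.87 and 11.92 in BaxBak controls. The groups stood apart by -0.36 ± 0.06, 1.29-fold, and all 9 of its probe sets were below 0 (from -0.62 to -0.27). Rpl11, which binds Mdm2 when ribosome assembly fails, had 12.09, 12.11 and 12.13 in the mutants, against 12.48, 12.44 and 12.40 in the controls, a difference of -0.33 ± 0.06. The smallest difference of the class was that of Rpl6 (-0.21 ± 0.05). Rpl27 had 4.31, 4.28 and 4.09 in the mutants, which is under the negative controls, against 4.96, 4.74 and 4.80 in the controls, so its fold is only a bound, at least 1.32-fold lower.

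The 14 small subunit proteins had a median of -0.45, with 13 lower and Rps12 higher. Rps19, a small subunit protein whose human gene is mutated in Diamond-Blackfan anaemia, had 9.51, 9.55 and 9.54 in Atr BaxBak mutants, against 10.34, 10.34 and 10.32 in BaxBak controls. Within each group its arrays differed by less than 0.05, and the groups by -0.80 ± 0.13, 1.74-fold, with all 5 probe sets lower (from -0.90 to -0.66). Rpsa, which stabilises the head of the small subunit and is also known as the laminin receptor, had 11.40, 11.44 and 11.42 in the mutants, against 11.88, 11.90 and 11.86 in the controls (-0.46 ± 0.07). Rps3, at the mRNA entry channel, had 11.55, 11.64 and 11.58 in the mutants, against 11.96, 12.03 and 11.99 in the controls (-0.40 ± 0.07). Neither gene's groups overlapped, and their folds of 1.38 and 1.32 were close to that of the class median, 1.37.

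Rps15 (-0.28 ± 0.06) and Rps24 (-0.27 ± 0.06) had the smallest lower differences of the class. Rps12 stood on the other side, with 6.29, 5.99 and 6.08 in Atr BaxBak mutants and 5.65, 5.29 and 5.64 in BaxBak controls. All mutants were above all controls, by 0.59 ± 0.12, and the gene rests on 1 exon region probe set.

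Promoters of these genes are shown because the ribosomal protein genes were lower together and are known for transcripts that start in a run of C and T, which places their translation under growth control. The windows run from 40 bases before to 20 bases after the annotated start, 5′ to 3′ on the gene's strand, in RefSeq on GRCm38.p6, and capitals mark the longest run of C or T that touches the 10 bases on either side of the start.
Rpl7a (chr2:26910767-26910826, plus): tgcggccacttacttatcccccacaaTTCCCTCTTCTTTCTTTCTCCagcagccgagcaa
Rpl35 (chr2:39005112-39005171, minus): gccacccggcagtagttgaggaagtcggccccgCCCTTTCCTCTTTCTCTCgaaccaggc
Rpl13a (chr7:45128726-45128785, minus): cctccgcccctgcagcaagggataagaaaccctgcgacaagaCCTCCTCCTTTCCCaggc
Rpl38 (chr11:114668540-114668599, plus): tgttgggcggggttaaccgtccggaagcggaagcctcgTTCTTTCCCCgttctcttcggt
Rps9 (chr7:3704001-3704060, plus): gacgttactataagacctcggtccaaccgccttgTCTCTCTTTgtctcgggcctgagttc
Rps19 (chr7:24884552-24884611, plus): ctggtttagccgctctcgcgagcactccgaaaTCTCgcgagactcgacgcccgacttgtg
Nop56 (chr2:130274372-130274431, plus): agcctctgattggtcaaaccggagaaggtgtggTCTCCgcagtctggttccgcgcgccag
Polr1a (chr6:71909013-71909072, plus): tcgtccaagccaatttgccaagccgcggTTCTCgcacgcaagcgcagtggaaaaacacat
A run of at least 8 such bases stood at 11 of 30 listed promoters of ribosomal proteins, 36.7%, beside 13.7% of all 32851 listed promoters. It stood at 8 of 37 promoters of initiation factors, 21.6%, and at 1 of 8 promoters of nucleolar assembly factors, 12.5%. The ribosomal protein windows shown hold such runs more often than the listed promoters do. Of the genes shown with such a run, Rpl7a, Rpl35 and Rps9 had BaxBak differences of -0.34, -0.39 and -0.44, and Rpl13a and Rpl38 of -0.88 and -0.70. Rps12, whose window is not shown, has a run of 11 bases and was higher (0.59). Rps19, Nop56 and Polr1a, with only a short run in the window shown, had -0.80, -1.12 and -0.48, so the ranges overlap. Rps19 has further listed starts, and this is 1 of them. The letters CCGGAAG, on either strand of the whole 300-base window, the core that ETS family factors read, were in 24 of the 79 promoters listed for 65 of the genes, 30.4%, beside 8.9% of all promoters and 11.6% of those of protein-coding genes. On the other strand these letters can overlap a run of C and T. The matches describe letters in a window and say nothing of binding.

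The 39 pseudogene loci were all lower in Atr BaxBak mutants, with a median of -0.43. Of 22 loci whose parent gene was among the 119, 20 lay within 0.15 on the log2 scale of that parent, and the median gap was 0.057. The 8 loci of Rps19 copies ranged from -0.74 to -0.64 beside -0.80 for Rps19, and Rps19-ps1 and Rps19-ps2 had identical values on every array. Such copies share nearly all of their sequence with the parent, so parent and pseudogene signal cannot be told apart and these loci are not separate evidence. Rpl5-ps2 is at least 1.31-fold lower, because the mutants lie under the negative controls, and Rpl9-ps2 lay under them in both groups and gets no fold. Leaving the pseudogenes out gave 75 of 80 genes lower, 3 higher and a median of -0.45.

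Among the 35 initiation factors, 32 were lower in Atr BaxBak mutants, with a median of -0.44. The trimeric factor that carries the start tRNA, eIF2, was lower in each of its measured subunits. Its alpha subunit gene Eif2s1, whose phosphorylation shuts down general translation, had 8.65, 8.73 and 8.64 in Atr BaxBak mutants, against 9.22, 9.36 and 9.30 in BaxBak controls, with all 10 probe sets lower (-0.62 ± 0.08, 1.54-fold). The beta subunit gene Eif2s2 differed by -0.48 ± 0.08, and Eif2s3x, the X-linked gamma subunit gene, by -0.90 ± 0.15 on 1 probe set, with 6.81, 7.02 and 7.07 in the mutants and 8.10, 7.75 and 7.75 in the controls. Eif2b5, the catalytic subunit of the exchange factor that recharges eIF2, was lower on all 16 probe sets, with 8.64, 8.68 and 8.64 in the mutants, against 9.21, 9.33 and 9.25 in the controls (-0.61 ± 0.07). Of the other exchange factor subunits, Eif2b3 (-0.58) and Eif2b4 (-0.53) were lower by similar amounts, Eif2b2 by less (-0.16), and Eif2b1 had a bright probe set at -0.42 and a dim one at 0.46.

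The kinases that phosphorylate eIF2 differed among themselves. Eif2ak4, the sensor of uncharged tRNA known as GCN2, had 7.01, 7.06 and 6.85 in Atr BaxBak mutants, against 7.68, 7.92 and 7.79 in BaxBak controls (-0.83 ± 0.08, 1.77-fold). Eif2ak3, the endoplasmic reticulum stress sensor PERK, had 4.11, 3.67 and 3.40 in the mutants, against 5.17, 4.58 and 5.04 in the controls. These mutant values lie under the negative controls, so Eif2ak3 can be given only as at least 1.41-fold lower, on 1 probe set. Eif2ak1, the haem-regulated kinase, was lower by less (-0.44 ± 0.08). Eif2ak2, the double-stranded RNA sensor PKR and an interferon-induced gene, had 7.13, 6.86 and 6.82 in the mutants, against 6.78, 6.90 and 6.57 in the controls, and the groups overlapped. Its junction probe set was at -0.68 and its exon region probe set at 1.06, so its mean of 0.19 stands for neither.

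The scaffold eIF3, which joins mRNA and small subunit, was measured through 8 genes. Eif3m differed most, with 9.0, 8.96 and 8.91 in Atr BaxBak mutants, against 9.52, 9.71 and 9.74 in BaxBak controls (-0.70 ± 0.09). Eif3e, on 16 probe sets that were all lower, had 9.76, 9.76 and 9.67 in the mutants, against 10.25, 10.29 and 10.35 in the controls (-0.57 ± 0.06). Eif3h, Eif3l, Eif3g, Eif3d and Eif3f had differences from -0.55 to -0.36. Eif3a, the largest subunit, had 7.35, 6.91 and 7.14 in the mutants, against 6.79, 6.96 and 6.89 in the controls, which overlap. Its mean difference of 0.25 joins a junction probe set of signal 9.13 at -0.55 with an exon region probe set of signal 5.0 at 1.06, and on the brighter probe set alone the gene turned to lower (-0.55).

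The cap-binding factors were lower by small amounts. Eif4e, which binds the mRNA cap, had 10.67, 10.66 and 10.58 in Atr BaxBak mutants, against 11.03, 11.05 and 11.15 in BaxBak controls (-0.44 ± 0.07, 1.36-fold), with all 11 probe sets lower. Eif4e3, a related cap-binding protein, differed by -0.44 ± 0.08, and the helicase gene Eif4a1 by -0.36 ± 0.05, with all 14 probe sets lower. Eif6, which keeps large subunits from joining too early, differed by -0.28 ± 0.06 and Eif5a, a factor for peptide bond formation at difficult residues, by -0.17 ± 0.05. For Eif5a 8 of 9 probe sets were lower, and 1 dim exon region probe set was at 1.39. Without junction probe sets its mean turned to 0.096.

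The 11 nucleolar assembly factors had a median of -0.55, with 10 lower and Utp20 higher. Nop56 and Nop58 are paired core proteins of the small nucleolar ribonucleoproteins that methylate ribosomal RNA. Nop58, the gene with the most probe sets (24, all lower, from -1.51 to -0.59), had 9.20, 9.13 and 9.01 in Atr BaxBak mutants, against 9.93, 10.03 and 9.95 in BaxBak controls (-0.85 ± 0.08, 1.81-fold). Nop56 had 7.48, 7.88 and 7.58 in the mutants, against 8.66, 8.85 and 8.79 in the controls (-1.12 ± 0.15, 2.17-fold), on 1 probe set. In both genes the highest mutant lay far under the lowest control.

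Of the small subunit processome, Utp23 had 7.03, 7.05 and 7.07 in Atr BaxBak mutants, against 7.62, 7.82 and 7.80 in BaxBak controls (-0.70 ± 0.09), and Utp14a 7.95, 7.97 and 7.79 in the mutants, against 8.44, 8.56 and 8.57 in the controls (-0.62 ± 0.07). Both were lower on all of their probe sets, 6 for Utp23 and 3 for Utp14a. Utp3 (-0.44), Nop9 (-0.40) and Nop16 (-0.36) were the factors with the smallest lower differences. Utp20, a large scaffold protein of the processome, had 8.94, 9.07 and 9.01 in the mutants, against 8.45, 8.63 and 8.37 in the controls, so all mutants were above all controls (0.53 ± 0.09). It rests on 1 exon region probe set, and its other exons have no named probe set.

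All 4 RNA polymerase I subunits were lower in Atr BaxBak mutants, from -0.74 to -0.48. Polr1b, a core catalytic subunit, had 7.53, 7.48 and 7.46 in the mutants, against 7.96, 8.06 and 7.94 in the controls (-0.49 ± 0.07), with all 5 probe sets lower. Polr1a, the largest subunit, had 6.30, 6.45 and 6.35 in the mutants, against 6.78, 6.90 and 6.85 in the controls (-0.48 ± 0.09), and Polr1d, which RNA polymerase III shares, had 7.11, 7.24 and 7.31 in the mutants, against 8.0, 7.96 and 7.91 in the controls (-0.74 ± 0.11). Polr1e (-0.50 ± 0.07) was lower on all 6 probe sets. The groups overlapped in none of the 4 genes.

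**Figure D2:**
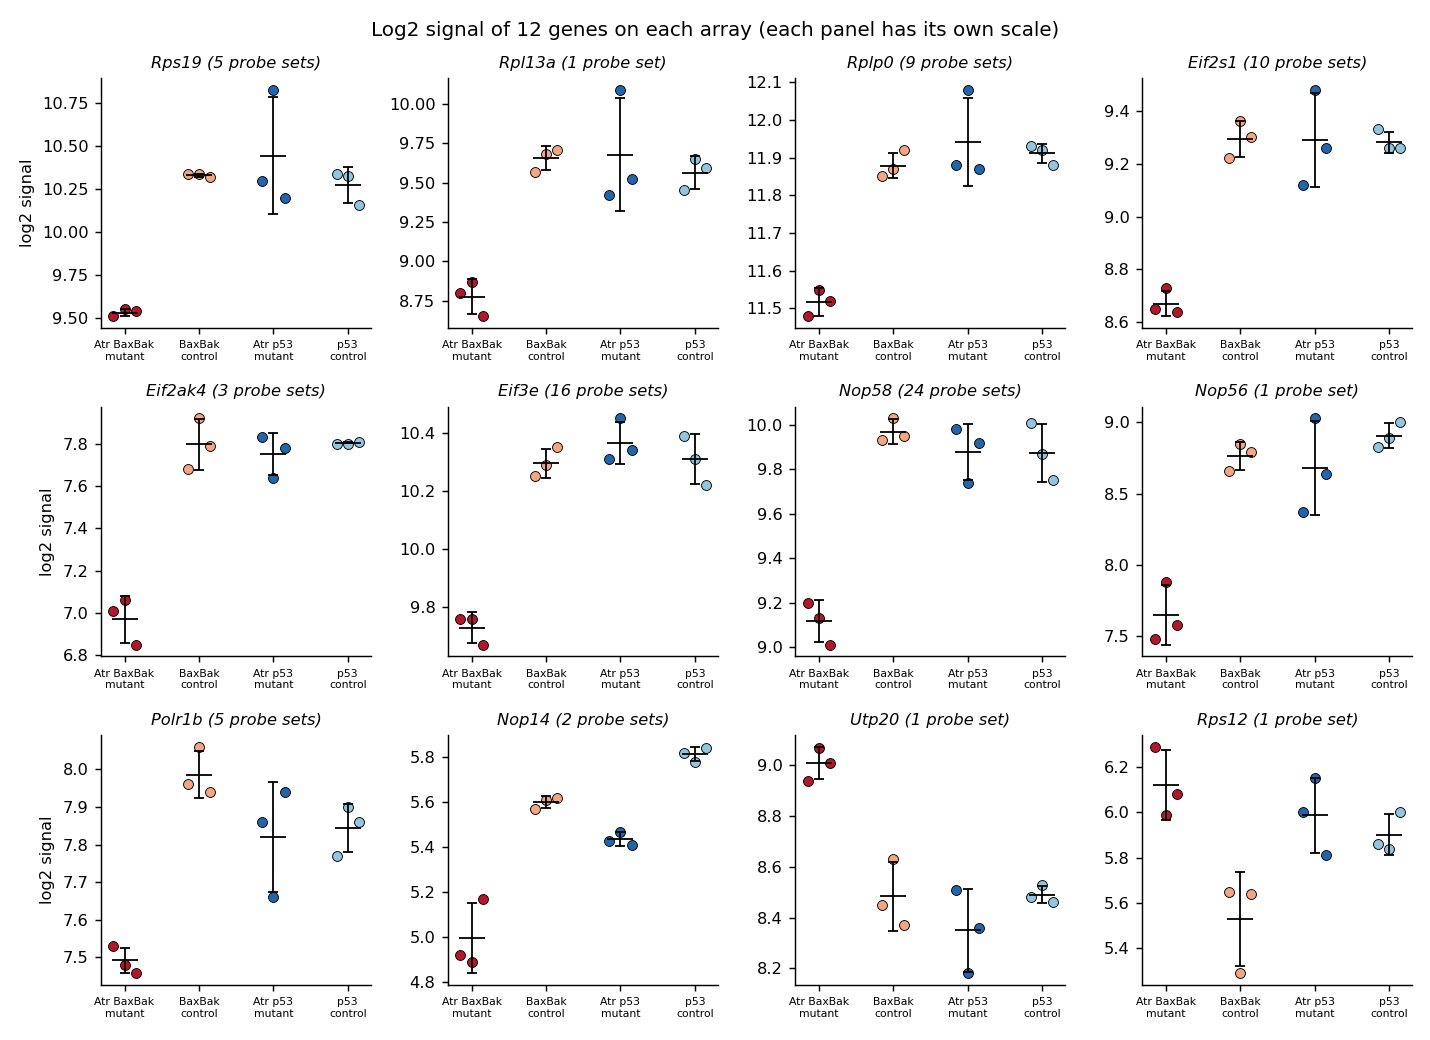
Log2 signal of 12 genes on each array, 3 points a group, with the mean and SD of the group, each panel on its own scale. Rps19, Nop58 and Polr1b have 3 Atr BaxBak mutants below all other arrays, Utp20 and Rps12 have them above the BaxBak controls, and in Nop14 the 3 Atr p53 mutants (5.41 to 5.47) also lie below the p53 controls (5.78 to 5.84).

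Single probe sets showed the same picture with a few exceptions. Of the 451, 443 were below 0 in Atr BaxBak mutants, and over the whole array 298 were lower past the threshold, 8 higher and 145 not past it, beside 5.24% of the array's probe sets that passed in either direction, a share that cannot be read against them because this comparison chose their names. In 30 of the 33 genes with at least 5 named probe sets, all of these were lower. Probe sets that did not pass the authors' test of this comparison have no name, so flat ones are absent from such counts. The same limit holds for the counts of lower probe sets given gene by gene, which are a description. The 8 higher probe sets cover exon regions of Eif5a (1.39), Eif2ak2 (1.06), Eif3a (1.06), Rpl22 (0.85), Rpl7 (0.64), Rps12 (0.59), Utp20 (0.53) and Eif2b1 (0.46). All but that of Utp20 (8.58) had a mean signal under 7, and the other probe sets of Rpl22 and Rpl7 were lower. No junction probe set, which needs a spliced transcript, was above 0.

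Among the named probe sets, differences were smaller where the signal was higher. The median was -0.62 for the 31 probe sets with a mean signal under 7, -0.62 for the 82 from 7 to 9, -0.51 for the 169 from 9 to 11 and -0.36 for the 169 above 11. Signal depends on the probes as well as on the transcript, and bright probe sets can be compressed near the top of the range, so sizes are not ranked between ribosomal proteins, which are bright, and nucleolar factors, which are dimmer. The naming also required a pass in this comparison, and a noisier probe set needs a larger difference to pass. Whether compression or this selection takes part was not tested.

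**Figure D3:**
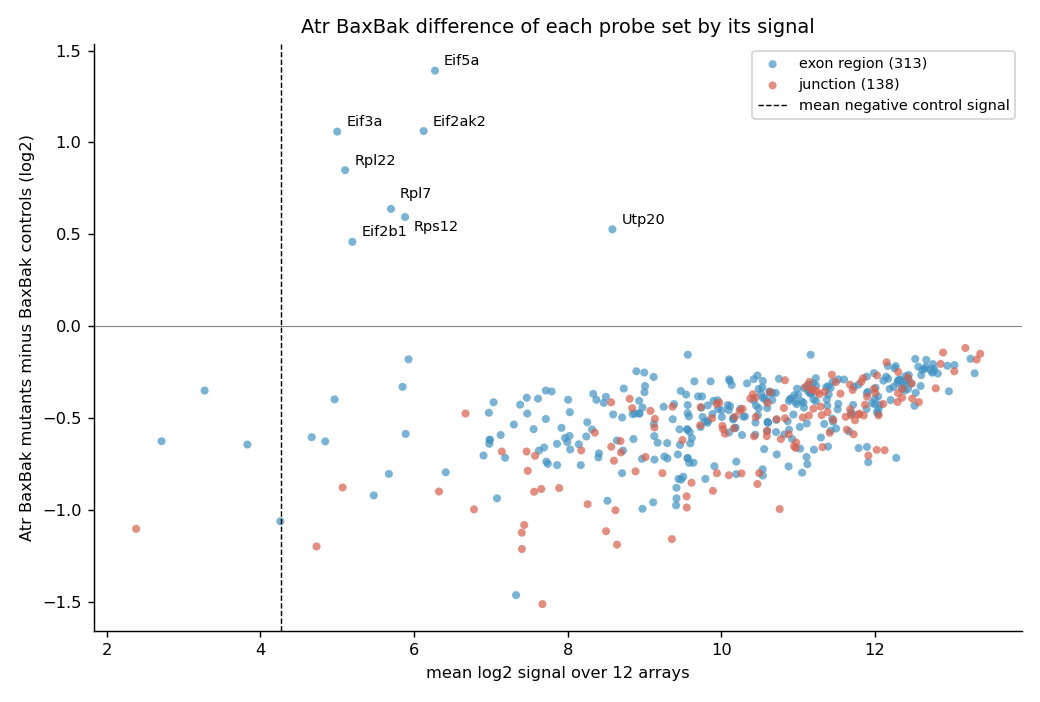
Each point is 1 of the 451 probe sets, with its mean log2 signal over 12 arrays on the horizontal axis and the Atr BaxBak mutant minus BaxBak control difference on the vertical axis, and the dashed line marks the mean negative control signal (4.27). The 8 points above 0 are labelled and 7 of them have a signal under 7, while the cloud narrows toward 0 at the bright end. All points passed the authors' test of this comparison, so flat probe sets are absent.

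In the p53 background, where naming played no part, the named genes of the machinery were close to their control level. Of the 119 genes 1 passed the test, Nop14, against 2.47% of all named genes. It fell, as did 1.33% of all named genes, while 1.14% rose. The median difference was 0.015 on the log2 scale, with 49 genes below 0 and 70 above, beside a median of -0.033, with 58.7% below 0 and 41.3% above, over all named genes. An unadjusted p under 0.05 was found for 17 of the 119, against 25.5% of all named genes. Over the array none of the 451 probe sets passed (smallest adjusted p = 0.64, limma, beside 0.00445% called of all probe sets), and 36 had an unadjusted p under 0.05, 7.98% beside 7.76% of the array. In the authors' deposited table the smallest step-up p among them was 0.561, and 64 had an unadjusted p under 0.05.

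Nop14, a processome factor, had 5.43, 5.47 and 5.41 in Atr p53 mutants, against 5.82, 5.78 and 5.84 in p53 controls. It fell by 0.38 ± 0.07 on the log2 scale, 1.30-fold, with all mutants below all controls (adjusted p = 0.0216, limma), and in the BaxBak background it was lower too (-0.61 ± 0.07). The gene rests on 2 probe sets near the negative controls, a junction at -0.58 and an exon region at -0.18 (adjusted p over the array 0.64 and 0.653), and its adjusted p ranged from 0.00566 to 0.342 over the settings tried, passing in 15 of 24. The 24 include the main fit and fits that left out a BaxBak sample. Leaving out a BaxBak sample can change this call only through the shared spread, so the tally is no measure of stability. The call was lost without Atr p53 mutant 1 (adjusted p = 0.0572), without Atr p53 mutant 2 (0.0611) and without p53 control 2 (0.0728) or 3 (0.0855). Without Atr p53 mutant 3, 6 genes passed: Nop14, Nop9, Polr1a, Eif1ad, Eif2b5 and Eif4h, all lower, and without p53 control 1, Nop14 and Nop9 passed.

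All 3 Atr p53 mutants lay below all 3 p53 controls in 12 genes, against 18% of all named genes, and above them in 4, against 8.98%. In 3 of these 4 genes (Rpl12, Rpl10-ps6 and Rpl10-ps1) all Atr BaxBak mutants lay below their controls. This pattern was found in 1.99% of all named genes, close to the share of 3 in 119. Of the 12, 6 were initiation factors, 3 nucleolar factors and 2 RNA polymerase I subunits, and the remaining gene was Rpl27. Nop9, an RNA-binding nucleolar factor, had 8.33, 8.23 and 8.37 in Atr p53 mutants, against 8.47, 8.72 and 8.66 in p53 controls (-0.31 ± 0.08, adjusted p = 0.0553, limma). Polr1a had 6.72, 6.35 and 6.70 in the mutants, against 6.94, 6.86 and 6.88 in the controls (-0.31 ± 0.09, adjusted p = 0.0794, limma). Neither passed, although in both the groups stood apart.

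The classes differed in sign. Initiation factors had a median of -0.068, with 27 of 35 below 0, nucleolar assembly factors of -0.12 (8 of 11 below 0) and RNA polymerase I subunits of -0.076 (3 of 4). Large subunit proteins had a median of 0.028, with 13 of 16 above 0, small subunit proteins of 0.043 (13 of 14 above 0) and pseudogenes of 0.065 (32 of 39 above 0). Apart from Nop14, no gene of any class passed the test. Among initiation factors the lowest adjusted p values in limma were 0.0917 for Eif3l (-0.21 ± 0.07), 0.0948 for Eif4h (-0.21 ± 0.07) and 0.0964 for Eif3a (-0.34 ± 0.11).

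The positive medians of the ribosomal proteins rest on 1 array. Atr p53 mutant 2 was the highest of its group for 14 of 16 large subunit proteins, 13 of 14 small subunit proteins and 34 of 39 pseudogenes, but for 12 of 35 initiation factors. Rps19 had 10.30, 10.83 and 10.20 in Atr p53 mutants, against 10.34, 10.33 and 10.16 in p53 controls (0.17 ± 0.13, adjusted p = 0.423, limma), and Rpl38 had 10.93, 11.35 and 10.78 in the mutants, against 10.91, 10.82 and 10.50 in the controls (0.28 ± 0.14, adjusted p = 0.233, limma). In both genes the second array exceeds all others, and the groups overlap. Without it the median of the 30 ribosomal proteins was -0.038 in place of 0.031, with 21 in place of 4 below 0, that of all 119 genes was -0.040, and 80 of the 119 were below 0. The pseudogene median came to 0.002 without it, with 20 above 0 and 19 below, while 7 of the 8 Rps19 copies stayed above 0 (median 0.025 in place of 0.22). The initiation factor median stayed at -0.065. The same array had the highest negative control signal of its group (4.50) and the lowest mean level of granule cell precursor markers (9.16, against 9.48 and 9.46 in the other Atr p53 mutants and 9.53 to 9.70 in p53 controls). The part of either in the ribosomal values was not tested.

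All 9 granule cell precursor markers were below 0 in the p53 comparison as well (median -0.26), beside 58.7% of all named genes, though none passed the test. Other lists also had medians below 0: postmitotic granule neurons (-0.17), astrocytes and Bergmann glia (-0.14), meninges and choroid plexus (-0.13) and microglia (-0.096). Medians of the oligodendrocyte lineage (-0.03), Purkinje cells (0.001), endothelial cells and pericytes (-0.002) and the erythroid marker (0.033) were nearer 0. All 5 interneuron markers lay between -0.03 and 0.02. All 3 Atr p53 mutants share a label prefix with p53 control 1, and set against that control alone the median of the 119 genes was -0.018, beside -0.022 over all named genes.

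**Figure D4:**
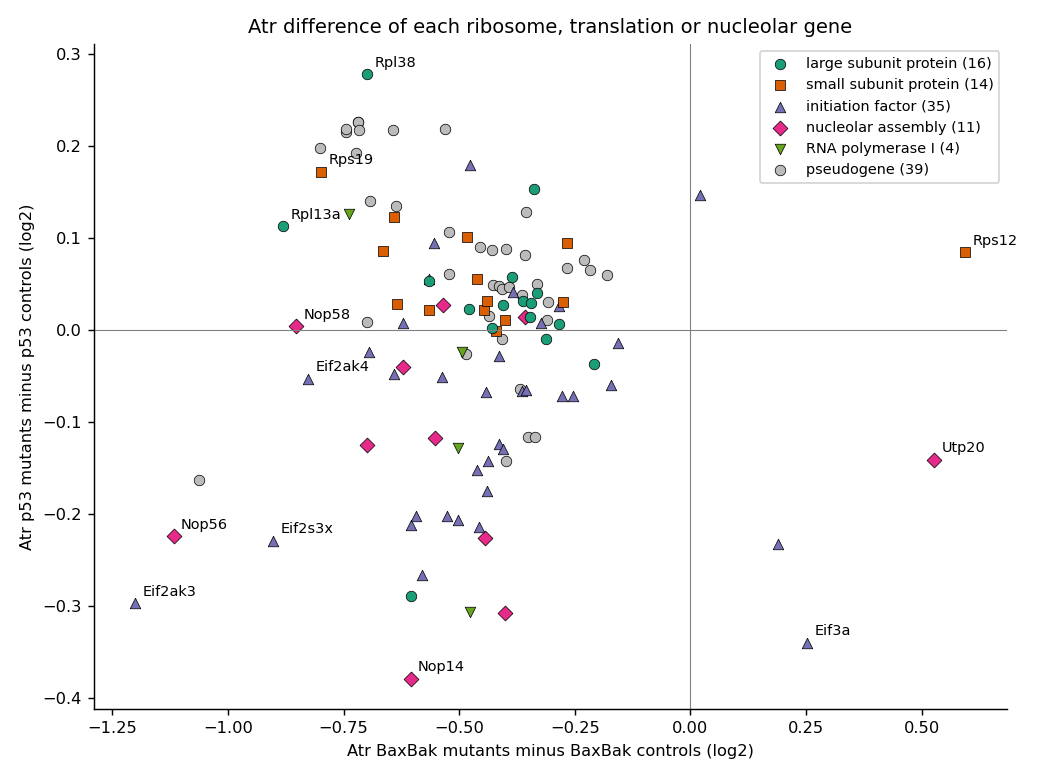
Each point is 1 gene, with its Atr difference in the BaxBak background on the horizontal axis and in the p53 background on the vertical axis, both in log2 units, coloured by class. Of the 119 genes, 114 lie left of 0, while the vertical spread runs from -0.38 to 0.28 around 0, with ribosomal proteins and pseudogenes mostly above 0 and initiation and nucleolar factors mostly below. The leftmost point, Eif2ak3, has mutant signals under the negative controls, so its place is no measured size.

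The Atr differences of the 2 backgrounds were thus unlike in size, and their difference had a median of -0.43 over the 119 genes, beside -0.23 over all named genes. Since the BaxBak samples chose the names, this is a description. The most negative differences were those of Rpl38-ps2 (-1.0), Rpl13a (-0.99), Rpl38 (-0.98) and Rps19 (-0.97). Over the array none of the 451 probe sets passed in that difference (smallest adjusted p = 0.0622, limma), beside 0.0809% of all probe sets, and 327 had an unadjusted p under 0.05, beside 11.5% of the array. This difference holds the BaxBak values that chose the names, so neither count is an independent test.

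Other genes of ribosome production were followed through lists that do not overlap the 119, and their counts in the BaxBak comparison stand beside 58.5% lower and 39.7% higher over all named genes. Of 35 named factors of small subunit assembly, 31 were lower and 3 higher in Atr BaxBak mutants (median -0.56). Nol10, a processome protein, averaged 6.88 in the mutants and 7.79 in the controls (-0.90 ± 0.11), and Esf1, under the negative controls in the mutants, is at least 1.08-fold lower. Nob1, the nuclease that makes the mature end of the small subunit RNA, averaged 8.06 in the mutants and 7.13 in the controls, higher by 0.93 ± 0.17 on 1 probe set. Of 34 factors of large subunit assembly, 32 were lower and 2 higher (median -0.46), with Ppan at -0.73 and Lsg1 at -0.72, and Gnl2 at 0.79.

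All 14 nucleolar scaffold and RNA modification genes were lower (median -0.56), among them Npm3, a chaperone related to nucleophosmin, at -0.77 ± 0.10, and Dkc1, the pseudouridine synthase dyskerin, with 8.88 in the mutants and 9.61 in the controls on 31 probe sets (-0.73 ± 0.08). Of 4 named genes of ribosomal RNA gene transcription outside the 119, Ubtf, which binds these genes along their length, was lowest (-0.65 ± 0.10), Rrn3 and Twistnb were lower, and Znrd1 was higher (0.46 ± 0.07). Of 15 genes of elongation, release and mRNA binding, 12 were lower and 3 higher (median -0.39), with Dhx29 at -0.68, Paip2b at -0.63 and Pabpc4 at 0.78. Of 16 genes of cytosolic tRNA charging, 10 were lower and 5 higher (median -0.35), near the shares and the median (-0.34) of all named genes, with the threonine enzyme gene Tars at -0.68 and the tryptophan enzyme gene Wars at 1.10.

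Of 19 genes of growth signalling to ribosomes, 10 were higher and 9 lower (median 0.27), with Sesn2, an inhibitor of mTOR signalling and a p53 target, averaging 9.40 in Atr BaxBak mutants and 8.24 in BaxBak controls (1.16 ± 0.11), and the S6 kinase family gene Rps6ka6 averaging 7.89 in the mutants and 8.80 in the controls (-0.91 ± 0.10). Of 6 genes around p53 in the response to failed ribosome assembly, regulators and the p53 target Cdkn1a among them, 5 were higher and 1 lower (median 0.67), with the cell cycle inhibitor Cdkn1a at 1.48 ± 0.07, Mdm4 at 0.83 ± 0.06 and the nucleolar protein Gltscr2 at -0.53 ± 0.08. In the p53 comparison no gene of these 8 lists passed the test, against 2.47% of all named genes. Their medians there ran from -0.11 for the scaffold genes to 0.019 for the p53-linked genes, with 27 of 35 small subunit and 24 of 34 large subunit assembly factors below 0, beside 58.7% of all named genes. All 3 Atr p53 mutants lay below all 3 p53 controls in 12 of these 35 and 8 of these 34 factors, beside 18% of all named genes. They lay above them in 1 and 0, beside 8.98%.

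**Figure D5:**
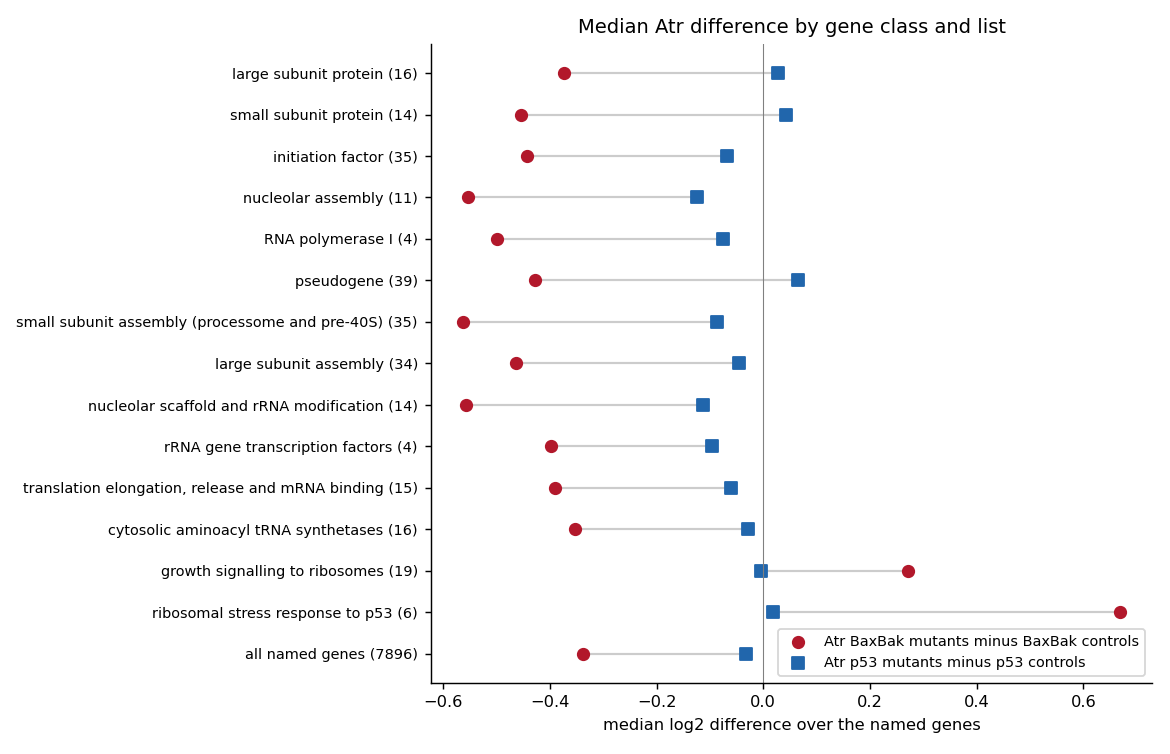
Median log2 difference over the named genes of each class and list, with the number of genes in brackets, red circles for Atr BaxBak mutants minus BaxBak controls and blue squares for Atr p53 mutants minus p53 controls. Red points of all ribosome and translation classes lie between -0.56 and -0.35, those of growth signalling (0.27) and the p53-linked list (0.67) lie above 0, and blue points lie between -0.13 and 0.07.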

How the data were processed

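RNA of 12 mouse cerebella was hybridised to Affymetrix arrays as labelled cDNA, per the labels' protocols, which speak of total RNA, while the sample descriptions say poly-A selected. The authors deposited log2 signals per probe set. For 34305 probe sets the authors also deposited a signed fold, used here as a score, with p-values and their step-up adjustment. Per the submitters' processing notes Partek was used, with no role or version, and for background correction, probe summary, normalization and build the answer is: not given in the sources used here. The authors' folds equalled the group differences of the deposited log2 values to within 9.27e-05.

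Names came from the authors' tables. Probe sets with several symbols (736) were left out. In annotation cells that reached 87 characters, the last symbol may be broken off. It counted as a further symbol only where its letters did not begin the gene's own symbol. Gene values are means over named probe sets (54 of the 119 genes rest on 1). limma 3.58.1 in R 4.3.3 (lmFit, eBayes, two-sided) fitted 4 group means over 12 samples, per gene and per probe set, with 8 residual degrees of freedom, Benjamini-Hochberg adjustment over all named genes or the array, threshold 0.05. The shared spread includes the BaxBak samples that chose the names. Where a group lay under the negative controls, the fold is a bound against the higher of their mean and the gene's value, per array. The fit was tested on simulated data.

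Genes and lists were chosen with earlier results of these data known. Named genes were, per family, the 4 highest and 4 lowest in the BaxBak comparison, those called in the p53 comparison, and 24 measured genes of 41 listed for their roles, and from each other list at most the 2 highest and 2 lowest. Rpl7, Rpl7a, Rpl12, Rpl27, Rpl35, Rps9, Eif1ad, Eif2b3, Eif2b4, Eif2s2, Eif3 genes other than Eif3a and Eif3m, Eif4h, Utp11l, Rpl9-ps2, Rps19-ps1 and Rps19-ps2 were added after their values were seen. The alternatives were the gene summary, probe set filters, normalization, negative controls as a covariate, label prefix, variance prior and left-out samples.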

Additional observations from a re-analysis of the deposited data

Results flagged for a closer look

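In 3 of the 119 genes all Atr BaxBak mutants lay below their controls and all Atr p53 mutants above theirs. The Atr difference of these genes thus had opposite signs in the 2 backgrounds. The share is close to the 1.99% of all named genes with this pattern, so the pattern is not particular to the 119 genes. The difference of the gene means was not tested, because the BaxBak samples chose the names. In the fit over the array it did not pass for their probe sets (adjusted p = 0.153 and 0.28 for the pair of Rpl12, 0.366 for Rpl10-ps6 and 0.405 for Rpl10-ps1, limma). For the large subunit protein gene Rpl12 the BaxBak difference minus the p53 difference was -0.49, with 12.35, 12.56 and 12.36 in Atr p53 mutants and 12.32, 12.27 and 12.23 in p53 controls. For the pseudogene loci Rpl10-ps6 and Rpl10-ps1 it was -0.31 and -0.28. Their parent gene Rpl10 is among the genes left out for a further symbol, so the loci could not be set beside it. As copies of the same gene, these loci are not separate cases. In the p53 comparison no test passed for the 3 genes (adjusted p = 0.159 for Rpl12, 0.379 for Rpl10-ps6 and 0.462 for Rpl10-ps1, limma).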

How the results depend on the processing

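The lower median of the 119 genes in the BaxBak comparison kept its sign under the alternatives run for it: gene summary, probe set filters, quantile normalization, centring, the negative control covariate and each left-out sample. This comparison chose the names, so the kept sign is a description and no support. Samples of the p53 background do not enter that median, which stayed at -0.442 without each of them. No probe set passed over the array in the p53 comparison under the prefix blocks, the trended prior, p53 samples alone, the dim filter, quantile normalization, the covariate or each left-out p53 sample. Centring on named genes moved the BaxBak median to -0.29, the difference between backgrounds to -0.33 and the higher genes to 5. The brightest probe set moved that difference to -0.36. The count of p53 calls was 0 with the brightest probe set, exon regions only, centring, the label prefix as a fixed block, a trended robust prior, or the authors' step-up p, and 2 with the prefix as a random block. Leaving out each sample gave counts of 0 to 6 and a p53 median of -0.040 to 0.052. That median was also below 0 without p53 control 3 (-0.014) and without pseudogenes (-0.012). Alternatives chosen after seeing the data were to leave out pseudogenes (75 lower), to keep genes with at least 3 probe sets (49 lower, 0 higher, 0 called in the p53 comparison), and to leave out Atr p53 mutants per class. Eif3a turned to -0.55 on its brightest probe set and Eif5a to 0.096 on exon regions only. The cause of these changes was not tested, apart from fewer genes in the added sets. No paired analysis was possible because the labels give no replicate number shared between groups. Limits: 3 samples a group, names chosen by 1 comparison, dim probe sets near the negative controls, and no strand or isoform resolution within a gene mean.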

Other observations

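Between the control groups, p53 controls minus BaxBak controls, the 119 genes had a median difference of -0.020, with 69 below 0, beside -0.018 over all named genes. The largest differences were those of Rpl5-ps2 (-0.51, near the negative controls), the cap-binding protein gene Eif4e3 (-0.36 ± 0.08, 8.41 in p53 controls and 8.78 in BaxBak controls) and, on the other side, Eif3a (0.42 ± 0.11), Rps12 (0.37 ± 0.12) and Eif2ak3 (0.36 ± 0.20). Rps3 differed by 0.26 ± 0.07. Names were chosen with the BaxBak controls, so these values carry no test. The control groups share no label prefix, so what the prefix marks and the background cannot be told apart.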
